A study of Drosophila melanogaster with 12 samples.

Results

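The genes of the MCM replicative helicase and of the origin recognition complex (ORC) were followed in whole adult *Drosophila melanogaster* females. The members were 10 of the 17558 genes in the count table, matched by gene name. Of these, *Mcm2*, *Mcm3*, *dpa* (the fly Mcm4), *Mcm5*, *Mcm6* and *Mcm7* encode the 6 helicase subunits, and *Orc1*, *Orc2*, *Orc5* and *Orc6* encode 4 subunits of ORC. The study sequenced RNA from females in which estrogen-related receptor (*ERR*), a nuclear receptor that controls carbohydrate metabolism, could be removed in the adult. Its 12 libraries fell into 4 groups of 3, a knockout and a control group for the conditional allele *ERR cond.2* and the same for *ERR cond.19-4*. In *ERR cond.2* females a BAC transgene of GFP-tagged *ERR* between FRT sites is the functional copy over the *ERR 1* and *ERR 2* mutant alleles. In *ERR cond.19-4* females the endogenous locus lies between FRT sites in the *ERR 2* background, a deletion that also reaches the neighbors *Atg18a* and *CG7979*. Knockouts and controls of an allele carry the same alleles. Knockout females were aged 0 to 2 d when first heat shocked, at 37°C on 2 occasions 24 h apart, control siblings were not heat shocked, and both were frozen 7 d after the heat shock. Heat shock and loss of *ERR* therefore cannot be told apart. RNA came from whole females, 10 pooled in each library, so that fewer cells of a type and less RNA per cell cannot be told apart either. Columns of the count table give a number and no allele name. Those numbered 2 were taken as *ERR cond.2*, a match that the sources used here do not state.

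The MCM subunits form a ring that ORC, with its loading partners, places around DNA at replication origins before S phase, and that unwinds DNA once replication starts. In adult females much DNA replication takes place in the ovary, where germline cells divide, nurse cells and follicle cells become polyploid, and follicle cells amplify the chorion genes. Oocytes are also loaded with transcripts and proteins that serve the rapid divisions of the early embryo.

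The 10 genes lie on 5 chromosome arms, and for all 10 the coordinates of the count table are those of the BDGP6 annotation. *Mcm2* (FBgn0014861) lies on 3R from 8264970 to 8267924, *Mcm5* (FBgn0017577) on 3R from 10788524 to 10791150 and *Orc2* (FBgn0015270) on 3R from 13964885 to 13967075. *Mcm3* (FBgn0024332) lies on X from 5323855 to 5326738 and *Mcm6* (FBgn0025815) on X from 6674387 to 6677176. *Mcm7* (FBgn0020633) lies on 3L from 8891596 to 8894310 and *Orc5* (FBgn0015271) on 2L from 13829837 to 13831576. All 7 of these are on the plus strand. The other three are on the minus strand of 2R, *dpa* (FBgn0015929) from 7496702 to 7500145, *Orc1* (FBgn0022772) from 7522437 to 7525716 and *Orc6* (FBgn0023180) from 9845458 to 9846485. No source used here says whether strand entered the counting, and 6 members share exon bases with a gene on the opposite strand. For *Mcm7* 81.7% of the exon bases lie under *asRNA:CR45871*, which had 0 counts in every library. For *Mcm3*, *Orc1*, *Orc2*, *Orc5* and *Orc6* the shared bases were 2.33%, 3.33%, 0.752%, 5.63% and 5.66% of the exon bases.

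All 10 members were well counted, with 393 to 2769 counts per gene and library in libraries of 17167432 to 20625801 assigned counts. The *ERR* transcript itself had 8.52 to 12.1 CPM, a count scaled to the size of its library, in *ERR cond.2* controls and 9.53 to 10.4 CPM in the knockout females (log2 fold change 0.01, adjusted p = 0.988, edgeR). In these females transcripts of the mutant *ERR 1* allele could be counted as *ERR*, so that the value does not measure removal of the transgene. *ERR* transcripts fell in *ERR cond.19-4* females, from 5.62 to 7.76 CPM in controls to 3.25 to 4.01 CPM with the heat shock (log2 fold change −0.83, adjusted p = 0.0228, edgeR). Of the 12 germline markers 11 had counts in every group, whereas 9 markers of male germline and accessory gland summed to at most 0.476 CPM in any library. The scaling of CPM used the trimmed mean of M values, computed across the 12 libraries at once. Changes are log2 fold changes from edgeR's quasi-likelihood test. Their standard error (SE) was computed as the absolute change over the square root of the F statistic. A gene was called at a Benjamini-Hochberg adjusted p under 0.05 over all genes tested.

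**Figure D1:**
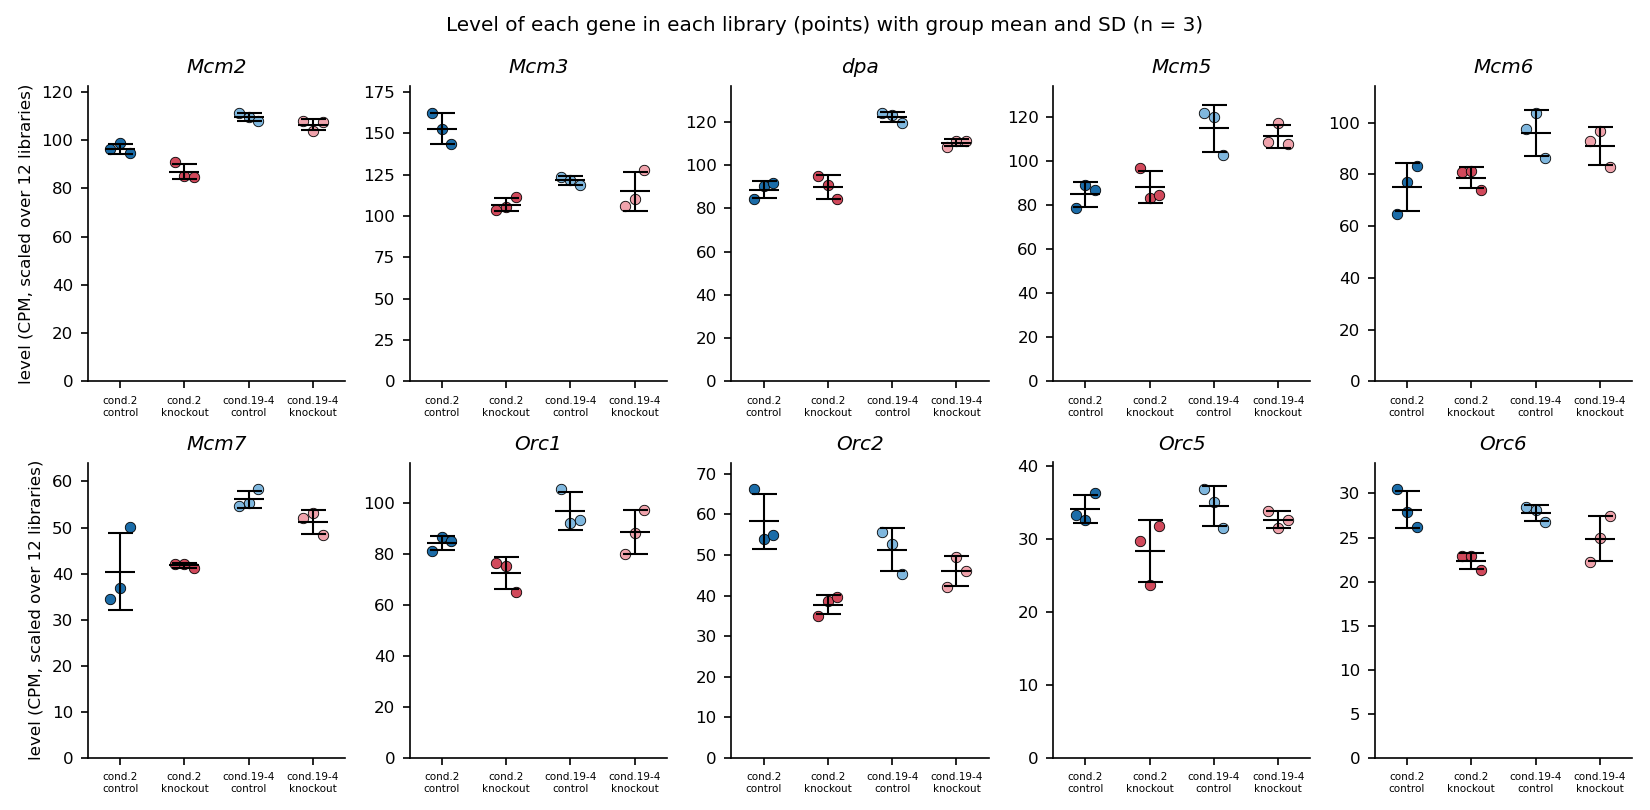
Level of each of the 10 genes in each library, in CPM scaled over all 12 libraries on a linear axis from 0. Points are libraries, and the horizontal lines and bars are the group mean and SD of 3 libraries. *Mcm3* stands at 144 to 162 CPM in *ERR cond.2* controls and at 104 to 128 CPM in the other three groups, and *Orc2* in *ERR cond.2* knockouts stands at 35.0 to 39.5 CPM, below all other libraries.

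In *ERR cond.2* females the helicase subunits did not move together. *Mcm3* was lower in knockouts and was the only member called, whereas *dpa*, *Mcm5*, *Mcm6* and *Mcm7* had almost the same levels with and without heat shock. All 4 origin recognition genes had lower levels in knockouts, none of them called by edgeR. Of all 9660 genes tested 0.466% were called lower, and of the 10 members 1 was.

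*Mcm3*, a helicase subunit beside the interface through which the ring opens, had 162, 153 and 144 CPM in *ERR cond.2* controls 1, 2 and 3. The knockouts had 104, 105 and 111 CPM. The lowest control thus lay well above the highest knockout. *Mcm3* fell from a mean of 153 ± 9.41 CPM to one of 107 ± 3.96 CPM (± SD, n = 3 each, edgeR, log2 fold change −0.53 with SE 0.08, adjusted p = 0.0380), which is a decrease of 30.5%. The call rested on all 6 libraries, since it was lost without any 1 of them, at log2 fold changes of −0.57 to −0.48 and adjusted p = 0.0743 to 0.195 (edgeR). It was also lost with total counts as library size (log2 fold change −0.43, adjusted p = 0.0950, edgeR), whereas DESeq2 gave an adjusted p of 3.97e-05.

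*Orc2*, an ORC subunit that chorion gene amplification requires in the fly ovary, had the largest estimate of the 10 genes. It stood at 66.2, 53.8 and 54.9 CPM in *ERR cond.2* controls and at 35.0, 38.6 and 39.5 CPM in knockouts, without overlap. The means were 58.3 ± 6.83 and 37.7 ± 2.39 CPM, at a log2 fold change of −0.64 (SE 0.10, adjusted p = 0.0532, edgeR). The gene was thus not called, although DESeq2 gave an adjusted p of 3.9e-04, and edgeR gave 0.0366 with every gene of at least 1 count and 0.00514 with all 12 libraries in 1 fit.

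*Orc6*, which in flies also acts in cytokinesis, stood at 30.5, 27.8 and 26.2 CPM in *ERR cond.2* controls and at 22.9, 22.8 and 21.3 CPM in knockouts. The groups did not overlap, with a log2 fold change of −0.34 (SE 0.09, adjusted p = 0.135, edgeR). *Orc1*, the ATPase subunit whose protein is removed at the end of each division cycle in flies, had 81.3 to 86.6 CPM in controls against 65.2 to 76.8 CPM in the knockout females (log2 fold change −0.23, adjusted p = 0.180, edgeR). *Orc5*, an ATP-binding subunit, had 32.7 to 36.3 CPM in controls against 23.7 to 31.8 CPM in the knockout females (log2 fold change −0.27, adjusted p = 0.244, edgeR). For all 4 ORC genes, then, each knockout library lay below all controls. The summed level of the 4 genes was 201 to 211 CPM in controls against 158 to 164 CPM in knockouts.

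Among the other helicase subunits only *Mcm2*, which also binds histones, had groups that did not overlap. It stood at 94.6 to 98.6 CPM in *ERR cond.2* controls against 84.8 to 90.7 CPM in the knockout females (log2 fold change −0.16, adjusted p = 0.212, edgeR). The estimates of *dpa*, *Mcm5*, *Mcm6* and *Mcm7* were 0.01, 0.05, 0.06 and 0.04 (log2), with adjusted p from 0.761 to 0.936 (edgeR), and their groups overlapped. *dpa*, *Mcm6* and *Mcm7* belong to the catalytic core of the ring. Their estimates also turned negative, at −0.07 for *dpa*, −0.08 for *Mcm5*, −0.06 for *Mcm6* and −0.07 for *Mcm7*, without both *ERR cond.2* libraries of number 1. The 5 helicase genes other than *Mcm3* summed to 386 ± 24.9 CPM in controls and 386 ± 18.4 CPM in knockouts. In all, 6 of the 10 members had knockouts below every control and 4 overlapped, where 30.5% of all genes had groups that did not overlap in either direction. The median log2 fold change was 0.03 for the 6 helicase genes and −0.31 for the 4 ORC genes, against −0.01 for all genes tested. At an unadjusted p under 0.05 there were 5 members, *Mcm2*, *Mcm3*, *Orc1*, *Orc2* and *Orc6*, and 22.4% of all genes.

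**Figure D2:**
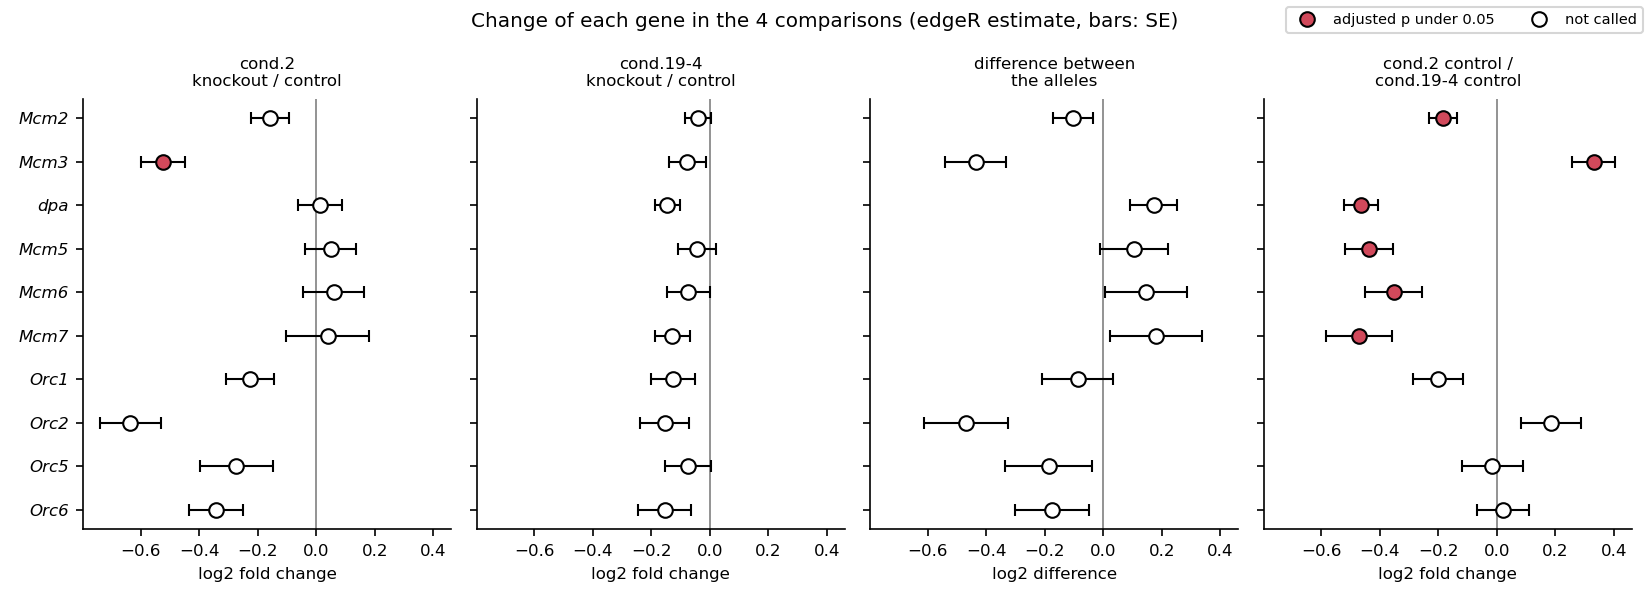
Log2 change of each of the 10 genes in the 4 comparisons, as edgeR estimated it, with bars of 1 SE. Filled points passed an adjusted p under 0.05. In the left panel *Mcm3* (−0.53) is filled and *Orc2* (−0.64) is not, all 10 points of the second panel lie between −0.15 and −0.04, and in the right panel 5 helicase genes lie below 0 and *Mcm3* above it.

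Markers of ovarian cell types, and the yolk protein genes, which are not counted among them here, differed between the same libraries. The 8 genes listed for follicle cells of the vitelline membrane stage are called vitelline membrane genes here, though not all are named for that membrane. They summed to 3686 to 7196 CPM in *ERR cond.2* controls and 9088 to 17017 CPM in knockouts. The 8 chorion genes summed to 5904 to 13742 and 13787 to 25646 CPM, and the 3 yolk protein genes to 57671 to 98591 and 29292 to 49892 CPM. None of these 19 genes was called by edgeR. An unadjusted p under 0.05 was found for 7 vitelline membrane, 7 chorion and 3 yolk protein genes, beside 22.4% of all genes. DESeq2 called 7 vitelline membrane and 3 chorion genes higher and 2 yolk protein genes lower. The number of all genes that DESeq2 called in *ERR cond.2* females is given below, but no share was computed. Its counts of list genes, here and below, therefore have no background share beside them. The germline markers summed to 2579 to 2670 CPM in controls, which overlapped the 2425 to 2595 CPM of knockouts. Estimates of the 11 markers tested went both ways, 5 negative and 6 positive (log2 fold changes of −0.56 to 0.41), so that the sum hides opposite movements. Of these 11, 4 had an unadjusted p under 0.05, beside 22.4% of all genes, and DESeq2 called 3 lower. One of 11 germline markers tested was called, *nos*, a translational regulator needed by germline stem cells, which fell to 162 ± 7.51 CPM in knockouts from 237 ± 13.9 in controls (log2 fold change −0.56, adjusted p = 0.0380, edgeR). Like that of *Mcm3*, this call was lost without any 1 of the 6 libraries and with total counts as library size. Taken relative to the summed germline markers of each library, *Mcm3* had a log2 difference of −0.45 and *Orc2* of −0.56 between *ERR cond.2* knockouts and controls, *Orc6* of −0.27, and *dpa* of 0.08. The part of these cell types in the member values was not tested.

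In *ERR cond.19-4* females all 10 members had slightly lower mean levels in knockouts and none was called, where edgeR called 3.70% of 9717 genes in either direction. The estimates ran from −0.15 to −0.04 (log2), with a median of −0.10 against 0.00 for all genes tested. At an unadjusted p under 0.05 there were 2 members, *dpa* and *Mcm7*, and 15.4% of all genes, and DESeq2 called 0 members. *dpa* had 124, 123 and 119.6 CPM in controls 1, 2 and 3 and 108, 111 and 111 CPM in knockouts (edgeR, log2 fold change −0.15 with SE 0.04, adjusted p = 0.0951). *Mcm7* had 54.8, 55.3 and 58.3 CPM in controls against 52.1, 53.1 and 48.3 CPM in the knockout females (edgeR, log2 fold change −0.13 with SE 0.06, adjusted p = 0.325). These were the 2 members whose groups did not overlap, in a comparison in which 20.3% of all genes did not overlap.

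The genes with the largest estimates in *ERR cond.2* females stood closer together here. *Mcm3* had 124, 122 and 119 CPM in *ERR cond.19-4* controls and 106, 111 and 128 CPM in knockouts, so that knockout 3 lay above every control (edgeR, log2 fold change −0.08 with SE 0.06, adjusted p = 0.631). *Orc2* had 55.6, 52.8 and 45.4 CPM in controls and 42.2, 49.6 and 46.1 CPM in knockouts, which also overlapped (edgeR, log2 fold change −0.15 with SE 0.08, adjusted p = 0.430). *Orc6* had a log2 fold change of −0.15 (SE 0.09, adjusted p = 0.470, edgeR). The SE of the 10 genes ran from 0.04 to 0.09 in this comparison. The spread between libraries was not small for every gene, since *Mcm3* had an SD of 2.52 CPM in these controls and 11.6 CPM in these knockouts. The vitelline membrane genes summed to 14921 to 20859 CPM in these controls and to 16722 to 17652 CPM in these knockouts, and the germline markers to 2528 to 2665 and 2482 to 2511 CPM.

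The change in *ERR cond.2* females was then tested against the change in *ERR cond.19-4* females as the interaction in 1 fit of 12 libraries. None of the 10 members passed by edgeR, which called 0.0598% of 10029 genes. At an unadjusted p under 0.05 there were 2 members and 22.2% of all genes, and DESeq2 called 1 member, *Mcm3* (adjusted p = 0.0147). *Mcm3* was more negative in *ERR cond.2* females by a log2 difference of −0.44 (SE 0.10, adjusted p = 0.0939, edgeR), and *Orc2* by −0.47 (SE 0.14, adjusted p = 0.121, edgeR). Without *ERR cond.2* knockout 3 *Mcm3* passed (log2 difference −0.48, adjusted p = 0.0415, edgeR), in a fit in which all genes called went from 6 lower and 0 higher to 245 and 244. The other 8 differences lay between −0.19 and 0.18, negative for *Mcm2* and the ORC genes and positive for *dpa*, *Mcm5*, *Mcm6* and *Mcm7*.

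More genes were called between the unshocked controls of the alleles than in either knockout, and here the helicase genes split. *Mcm2*, *dpa*, *Mcm5*, *Mcm6* and *Mcm7* were lower in *ERR cond.2* controls than in the other controls, *Mcm3* was higher, a call not made with total counts as library size, and none of the ORC genes was called. Over 10029 genes, 24.2% were called lower and 22.7% higher in this comparison, and 56.5% had groups that did not overlap. The stocks thus differed at a large share of all genes, and the 6 members called of 10 were read against that background. The *ERR cond.2* controls also served in the comparison with *ERR cond.2* knockouts, so that the values of both comparisons share libraries.

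The 4 strongly lower genes differed by about the same amount. *dpa* had 84.2, 90.1 and 91.7 CPM in *ERR cond.2* controls and 124, 123 and 119.6 CPM in *ERR cond.19-4* controls, far apart (edgeR, log2 fold change −0.46 with SE 0.06, adjusted p = 7.72e-05). *Mcm5* had 78.7 to 89.1 CPM in the former and 103 to 122 CPM in the latter (edgeR, log2 fold change −0.44 with SE 0.08, adjusted p = 0.00123). *Mcm7* had 34.4, 36.9 and 50.0 CPM against 54.8, 55.3 and 58.3 CPM (edgeR, log2 fold change −0.47 with SE 0.11, adjusted p = 0.00467). Control 3 of *ERR cond.2* was the one closest to the other stock. *Mcm6* had 64.8, 77.2 and 83.3 CPM against 97.7, 104 and 86.3 CPM, where control 3 of either allele left a gap of only a few CPM (edgeR, log2 fold change −0.35 with SE 0.10, adjusted p = 0.0114). *Mcm2* showed a smaller difference, with 96.4 ± 2.02 against 109.6 ± 1.64 CPM (edgeR, log2 fold change −0.19 with SE 0.05, adjusted p = 0.00807). The calls of *Mcm2* and *Mcm6* were each lost without 1 library, *ERR cond.19-4* control 1 for *Mcm2* (adjusted p = 0.0506, edgeR) and control 2 for *Mcm6* (adjusted p = 0.0529, edgeR).

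*Mcm3* went the other way, with 144 to 162 CPM in *ERR cond.2* controls against 119 to 124 CPM in *ERR cond.19-4* controls (edgeR, log2 fold change 0.33 with SE 0.07, adjusted p = 0.00309). Without any 1 library it remained called, at log2 fold changes of 0.30 to 0.40 (adjusted p = 0.00139 to 0.0143, edgeR). Its difference depended on the scaling. With total counts as library size, which moved the all-gene median from −0.02 to −0.19 (log2 fold change), it was 0.16 (adjusted p = 0.140, edgeR). In that scaling 6 members were called lower, *Orc1* being the added one (log2 fold change −0.37, adjusted p = 0.00845, edgeR), and over all genes 3686 were called lower and 1529 higher instead of 2429 and 2278. The *ERR cond.2* controls carried more yolk protein transcripts, 57671 to 98591 against 25598 to 33415 CPM, and fewer vitelline membrane transcripts, 3686 to 7196 against 14921 to 20859 CPM. All 3 yolk protein genes were called higher, 7 of 8 vitelline membrane genes lower and 8 of 8 chorion genes lower (edgeR). The summed germline markers overlapped, but 3 of the 11 tested were called lower and 3 higher (edgeR), beside 24.2% and 22.7% of all genes. With total counts as library size these were 4 and 2. The sum thus joins opposite differences. Relative to it the log2 difference between the controls was 0.30 for *Mcm3* and −0.49 for *dpa*. Whether the ovarian cell types have a part in the member values was not tested.

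The ORC genes were closer in the controls. *Orc2* stood at 53.8 to 66.2 CPM in *ERR cond.2* and 45.4 to 55.6 CPM in *ERR cond.19-4* controls (edgeR, log2 fold change 0.19 with SE 0.10, adjusted p = 0.155). *Orc1* had groups that did not overlap, with 81.3 to 86.6 against 92.2 to 106 CPM (edgeR, log2 fold change −0.20 with SE 0.09, adjusted p = 0.0716). The estimates of *Orc5* and *Orc6* were −0.02 and 0.02 (log2), with SEs of 0.10 and 0.09, and that of *Orc6* was −0.15 with total counts as library size. In all, 6 members were lower without overlap, 1 was higher and 3 overlapped, where 56.5% of all genes had groups that did not overlap in either direction.

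Levels were compared between genes only per length, as CPM per kb of the gene length in the count table. In *ERR cond.2* controls *Mcm3* stood first at 55.7 ± 3.43 CPM per kb, apart from the next gene, *Mcm5*, at 34.7 ± 2.26. *Mcm2*, *Orc2*, *Orc6*, *dpa*, *Mcm6* and *Orc1* followed between 33.3 and 26.8 CPM per kb, each overlapping its neighbor in the order. *Orc5* and *Mcm7* stood last at 20.2 ± 1.15 and 16.5 ± 3.42 CPM per kb and overlapped. The level of *Mcm7* per length is uncertain, since 81.7% of its exon bases lie under *asRNA:CR45871* and the strand setting is not known. In *ERR cond.2* knockouts *Mcm3* remained first at 38.9 ± 1.44 CPM per kb but overlapped *Mcm5* at 36.1 ± 3.01, and *Orc2* stood eighth at 18.9 ± 1.20. In both *ERR cond.19-4* groups *Mcm5* stood above *Mcm3*, at 46.9 ± 4.33 against 44.3 ± 0.916 CPM per kb in controls and 45.4 ± 2.11 against 41.9 ± 4.21 in knockouts, with overlap in each. *Orc5* was the lowest gene in 3 of the 4 groups.

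The products of the 6 helicase genes work in equal numbers within the ring, but their transcripts were not equally abundant per length. *Mcm3* took 26.1% to 31.3% of the summed CPM per kb of the 6 genes in *ERR cond.2* controls and 20.4% to 23.1% in *ERR cond.2* knockouts. It took 19.2% to 20.0% in *ERR cond.19-4* controls and 18.4% to 21.9% in knockouts. The share thus stood apart in *ERR cond.2* controls, and its ranges in the other three groups met or nearly met. *Mcm7* took the smallest share of the 6 genes in every group, with means of 8.40% to 10.1%. That share has the limit given above, as most exon bases of *Mcm7* lie under an antisense gene and the strand setting is not known. Among the 4 ORC genes, *Orc2* took 26.3% to 30.1% in *ERR cond.2* controls, 21.1% to 24.4% in *ERR cond.2* knockouts, 23.1% to 25.1% in *ERR cond.19-4* controls and 22.8% to 25.5% in *ERR cond.19-4* knockouts. These shares do not depend on library scaling, since all terms come from 1 library.

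**Figure D3:**
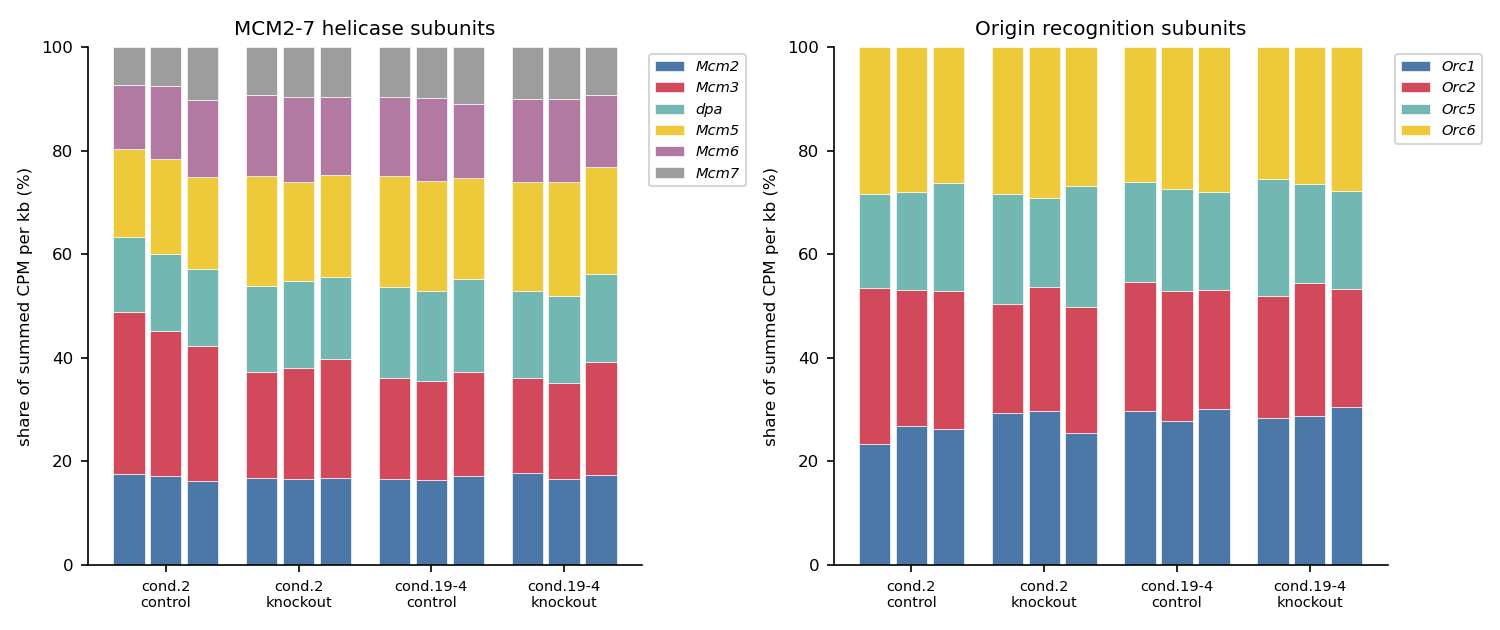
Share of each gene in the summed CPM per kb of its complex, in percent, with 1 bar for each library and 3 bars a group (left, the 6 helicase genes; right, the 4 ORC genes). The *Mcm3* segment covers 26.1% to 31.3% in *ERR cond.2* controls and 18.4% to 23.1% in the other libraries.

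Across the 12 libraries the log2 CPM of the 5 helicase genes other than *Mcm3* varied together, with Pearson r of 0.65 to 0.94 over their 10 pairs and a median of 0.86. *Mcm3* had r of −0.46 to 0.12 with these 5 genes. The libraries share their group differences and their scaling, and after group means were removed the median r was 0.50 among the 5 genes and −0.35 between them and *Mcm3*. The values are a description of 12 libraries in 4 groups.

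Other replication genes were read from lists by role, 42 genes of which 41 were tested. In *ERR cond.2* females none of the 41 was called by edgeR, 15 had an unadjusted p under 0.05, as 22.4% of all genes had, and DESeq2 called 7 lower. Their estimates were negative for 33 of 41, with a median of −0.16 against −0.01 for all genes. In *ERR cond.19-4* females none was called, 3 had an unadjusted p under 0.05 beside 15.4% of all genes, DESeq2 called 0, and the median was −0.05. Without *ERR cond.19-4* knockout 3 there was 1 called lower, a helicase activation gene. The difference between the alleles was called for none of them, with 13 at an unadjusted p under 0.05, beside 22.2% of all genes, and 0 by DESeq2. In *ERR cond.2* against *ERR cond.19-4* controls 14 were lower and 7 higher by edgeR, beside the 24.2% and 22.7% of all genes, and 23 and 2 with total counts as library size. Without *ERR cond.19-4* control 1 the counts were 9 and 5, without *ERR cond.2* control 1 they were 11 and 3, and without *ERR cond.19-4* control 2 or 3 the higher ones numbered 4.

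By role, *Orc4*, a further ORC subunit, had 33.3 ± 4.69 CPM in *ERR cond.2* controls against 28.8 ± 1.45 CPM in the knockout females (log2 fold change −0.22, adjusted p = 0.305, edgeR). *lat*, which encodes Orc3, was listed at 0 counts in every library, as was *CG34315*, which covers all of its exon bases on the same strand, so no level of *lat* can be read from the table. Of the 3 helicase loading genes none was called in either knockout, at an unadjusted p under 0.05 or by DESeq2 either. Between the controls 2 were lower in *ERR cond.2*, beside 24.2% of all genes. Of these 2, 1 remained without control 1 or 3 of *ERR cond.2* or control 1 or 2 of *ERR cond.19-4*. *dup*, the fly Cdt1, which brings the MCM ring to ORC, had the larger difference there, with 73.4 to 104 against 143 to 171 CPM (edgeR, log2 fold change −0.77 with SE 0.12, adjusted p = 3.65e-04). *geminin*, which blocks Cdt1, followed (log2 fold change −0.22, adjusted p = 0.0223, edgeR).

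Among 11 helicase activation genes edgeR called none in a knockout comparison. In *ERR cond.2* females 4 had an unadjusted p under 0.05, beside 22.4% of all genes, and DESeq2 called 1 lower. Of these 4, *Ctf4* (log2 fold change −0.35) and *mus101* (−0.29) had lower levels in knockouts (edgeR). *Cdc7* (0.25, l(1)G0148 in the count table) and *chif* (0.30) had higher levels (edgeR). In *ERR cond.19-4* females 1 had an unadjusted p under 0.05, beside 15.4% of all genes, and DESeq2 called 0. Between the controls 4 were lower and 2 higher, beside 24.2% and 22.7% of all genes, and 7 and 2 with total counts as library size. *Cdc45* (CDC45L in the count table), part of the active helicase, was lower in *ERR cond.2* controls (log2 fold change −0.44, adjusted p = 4.46e-04, edgeR), as were the GINS subunit gene *Psf1* (−0.67, adjusted p = 0.00960, edgeR) and *chif*, the activator of the Cdc7 kinase (−0.42, adjusted p = 0.00132, edgeR). *Psf3*, another GINS subunit gene, was counted higher (log2 fold change 1.68, adjusted p = 3.32e-04, edgeR). It shares 34.9% of its exon bases with *CG17841* on the opposite strand, whose log2 fold change was 3.66 (adjusted p = 1.86e-05, edgeR), so that reads of these genes cannot be told apart without strand. *rec*, an MCM family gene of meiotic recombination outside the helicase ring, was higher at 7.30 ± 0.596 against 5.09 ± 0.565 CPM (log2 fold change 0.52, adjusted p = 0.0216, edgeR), a call lost with total counts and without *ERR cond.2* control 1 or control 1 or 2 of *ERR cond.19-4*.

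Of 11 replicative polymerase genes edgeR called none in a knockout comparison. Between the controls 4 of them were lower and 3 higher, beside 24.2% and 22.7% of all genes. These counts became 2 and 1 without *ERR cond.2* control 1, 1 and 3 without *ERR cond.2* control 2, 1 and 2 without *ERR cond.19-4* control 1, and 4 and 1 without *ERR cond.19-4* control 3. An unadjusted p under 0.05 was found for 6 of the 11 genes in *ERR cond.2* females, beside 22.4% of all genes, and DESeq2 called 4 lower. In *ERR cond.19-4* females it was found for 2, beside 15.4% of all genes, and DESeq2 called 0. *PolD1* (DNApol-delta in the count table), the catalytic subunit of polymerase delta, had 67.7 ± 2.55 CPM in *ERR cond.2* controls against 53.7 ± 4.01 CPM in the knockout females (edgeR, log2 fold change −0.34 with SE 0.08, adjusted p = 0.120). It was higher in the controls of *ERR cond.2* than of the other allele (log2 fold change 0.32, adjusted p = 0.00501, edgeR), and knockouts of the latter allele had an estimate of 0.03 (log2, adjusted p = 0.873, edgeR). Of 14 clamp, clamp loader and fork genes 4 were lower and 1 higher between the controls, beside the same 24.2% and 22.7% of all genes. Among the lower ones was *PCNA*, the sliding clamp (log2 fold change −0.39, adjusted p = 0.00222, edgeR). Of these 14 genes edgeR called none in either knockout. In *ERR cond.2* females 4 had an unadjusted p under 0.05, beside 22.4% of all genes, and DESeq2 called 2 lower. In *ERR cond.19-4* females 0 had an unadjusted p under 0.05, beside 15.4% of all genes, and DESeq2 called 0. With total counts as library size the polymerase genes numbered 6 lower and 0 higher between the controls, and the clamp and fork genes 7 and 0. The 1 higher clamp or fork gene was also lost without *ERR cond.2* control 1 or 2 or *ERR cond.19-4* control 2 or 3, and there were 2 without *ERR cond.2* control 3.

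Regulators of S phase entry and of mitosis were read in the same way. Of 21 genes of G1 to S and mitotic control none was called in *ERR cond.2* females. An unadjusted p under 0.05 was found for 5, in both directions and beside 22.4% of all genes, and DESeq2 called 2 lower. *dap*, the cyclin-dependent kinase inhibitor that limits S phase entry, had 71.6 ± 10.5 CPM in controls against 45.4 ± 0.509 CPM in the knockout females (edgeR, log2 fold change −0.66 with SE 0.11, adjusted p = 0.0532). In *ERR cond.19-4* females 1 of 21 was lower, the mitotic cyclin gene *CycB* (log2 fold change −0.22, adjusted p = 0.0133, edgeR). Of all genes 3.70% were called there in either direction. The count of 1 ran from 0 to 3 when 1 library was left out. Leaving out control 2 or knockout 2 of that allele gave 0, and leaving out control 3 gave 3. Between the controls 11 were lower and 2 higher, beside 24.2% and 22.7% of all genes. *E2f1*, the activator of many replication genes, was lower in *ERR cond.2* controls (log2 fold change −0.40, adjusted p = 9.05e-04, edgeR), and *dap* (0.69, adjusted p = 1.11e-04, edgeR) and *fzr* (rap in the count table), an activator of the anaphase-promoting complex (0.44, adjusted p = 8.94e-04, edgeR), were higher. With total counts as library size 15 were lower and 2 higher, and without *ERR cond.2* control 1, 7 were lower and 2 higher.

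**Figure D4:**
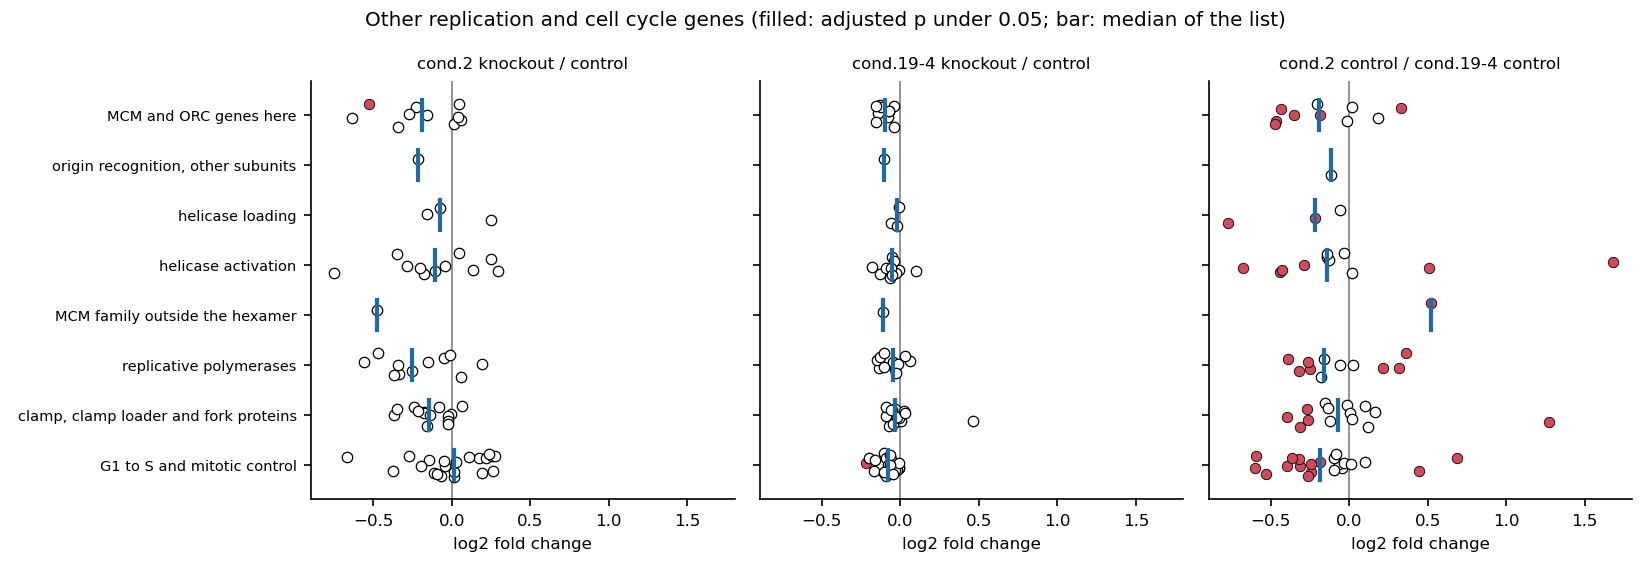
Log2 fold change of each gene of the replication and cell cycle lists in 3 comparisons, on 1 shared axis, with the 10 MCM and ORC genes on top. Each point is a gene, filled where the adjusted p was under 0.05 (edgeR), and the vertical bar is the median of the list. In the right panel filled points stand on both sides of 0, and in the middle panel *CycB* is the filled one.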

How the data were processed

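RNA of whole females was poly(A) selected and sequenced in pairs of 150 bp. The authors aligned with TopHat and counted with HTSeq, per the submitters' processing notes, and deposited the counts per gene as they came, with no normalization. Versions, build and strand setting: not given in the sources used here. CPM per kb used the gene length in bp that the authors deposited. The 12 libraries held 17167432 to 20625801 counts, and each member at least 393 per library.

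The members and gene lists were chosen with earlier results of these data known. Both knockout comparisons used the 6 libraries of the allele. The interaction of allele and knockout and the comparison of controls came from a fit of 12 libraries. Counts were tested in R 4.3.3 with edgeR 4.0.16 (glmQLFit and glmQLFTest, filterByExpr, trimmed mean of M values, Benjamini-Hochberg over all genes tested), and the script was tested on simulated data. Log2 CPM for correlations had a prior count of 2. The replicates came from separate experiments, per the study's methods.

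The lists held 125 genes, all found. They were other ORC subunits, helicase loading, helicase activation, *rec*, replicative polymerases, clamp and fork proteins, G1 to S and mitotic control, and markers of germline, vitelline membrane and chorion stage follicle cells, yolk proteins, fat body, muscle, neurons, midgut and male germline. The text could name all 10 members, up to 4 genes a list with the lowest p in a comparison, *PolD1*, and the 5 genes most like the mean of the members. *CG17841*, *CG34315*, *CG3309*, *Rnp4F* and *asRNA:CR45871* were named for their position after their values were seen. A planned count of promoter motifs was not made, since no genome sequence was used here.

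Alternatives were a test with DESeq2 1.42.0, its size factors or total counts in edgeR, a filter of 1 count in any library or of 10 in all, other sets of libraries in the fit (all 12, or the 6 controls), a threshold of 0.01, the replicate number as a block, each library left out, and both *ERR cond.2* libraries of number 1 left out. Versions of pandas (2.3.3), numpy (2.4.6), matplotlib (3.10.9) and Python (3.11.15) are those used for tables and plots.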

Additional observations from a re-analysis of the deposited data

How the results depend on the processing

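In *ERR cond.2* females the 1 member called lower by edgeR became 2 with DESeq2 (*Mcm3* and *Orc2*) and with every gene of at least 1 count, and 3 with all 12 libraries in 1 fit (*Mcm3*, *Orc2* and *Orc6*, the last at adjusted p = 0.0329, edgeR). It became 0 with total counts, with the replicate block, without both *ERR cond.2* libraries of number 1 (*Mcm3* −0.46, adjusted p = 0.139, edgeR), with a threshold of 0.01, and without any 1 library (0 to 0). Over all genes 45 were lower and 16 higher, against 297 and 275 by DESeq2, 31 and 24 with total counts, 64 and 33 with at least 1 count, 628 and 786 with all 12 libraries and 9 and 0 with the block. For *ERR cond.19-4* knockouts 0 members were called in every setting run, while all genes called went from 101 lower and 259 higher to 53 and 41 with all 12 libraries. For the difference between the alleles the 0 became 1 with DESeq2 and 0 to 1 without 1 library, and over all genes 6 lower and 0 higher became 201 and 258 by DESeq2. Between the controls the 6 ran from 5 to 6 without 1 library and were 5 without both libraries of number 1, where *Mcm6* was lost (−0.24, adjusted p = 0.0506, edgeR).

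The replicate numbers did not pair the libraries, since deviations of same-numbered control and knockout correlated at r = −0.30, −0.17 and 0.00 in *ERR cond.2* and 0.02, 0.05 and 0.00 in *ERR cond.19-4* females. With the replicate block *Mcm3* had a log2 fold change of −0.52 (adjusted p = 0.357, edgeR) in *ERR cond.2* females, and 6 members were called between the controls.

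Signs turned only for estimates near 0. Without both libraries of number 1 these were *dpa* −0.066, *Mcm5* −0.077, *Mcm6* −0.057 and *Mcm7* −0.072 in *ERR cond.2* females, *Mcm5* −0.021 for the difference between the alleles, and *Orc5* 0.018 and *Orc6* −0.021 between the controls. *Orc6* between the controls was −0.15 with total counts, and *Orc5* 0.0015 with the 6 controls alone. Without 1 library *dpa* ran from −0.032 to 0.057, *Mcm5* from −0.026 to 0.090, *Mcm6* from −0.040 to 0.14 and *Mcm7* from −0.069 to 0.22 in *ERR cond.2* females. *Mcm5* ran from −0.12 to 0.0026 in *ERR cond.19-4* females, *Orc5* from −0.077 to 0.047 and *Orc6* from −0.026 to 0.10 between the controls. Apart from the alternative's own construction, the cause of these shifts was not tested.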

Other observations

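The 5 genes outside the 10 whose log2 CPM most resembled the mean standardised profile of the members over the 12 libraries were *Cap-D2*, a condensin subunit gene (Pearson r 0.96), *Cul4*, a ubiquitin ligase scaffold gene (0.95), *DNApol-alpha73*, the gene of the second subunit of polymerase alpha (0.95), *vtd*, a cohesin subunit gene (0.95), and *Rpn9*, a proteasome subunit gene (0.94). The 12 points share 4 groups and 1 scaling.

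Of the markers of other tissues, the 3 fat body genes summed to 1473 to 2583 CPM in *ERR cond.2* controls, 1061 to 1569 in *ERR cond.2* knockouts and 1054 to 1333 in the *ERR cond.19-4* groups. Between the controls 2 of 3 fat body, 0 of 7 muscle, 0 of 6 neuron and 1 of 6 midgut genes were higher, and 0, 2, 1 and 3 were lower (edgeR). Of all genes 22.7% were higher and 24.2% lower in that comparison. With total counts as library size 5 muscle genes were lower, and without 1 library 1 to 3 were. The 1 neuron gene was lost without *ERR cond.2* control 2 or *ERR cond.19-4* control 1 or 3, and 2 midgut genes were higher without *ERR cond.2* control 2 or knockout 3. In *ERR cond.2* females 0 of these marker genes were called by edgeR. At an unadjusted p under 0.05 there were 2, 4, 0 and 2, beside 22.4% of all genes. DESeq2 called 1 fat body gene lower and 1 muscle gene higher. In *ERR cond.19-4* knockouts edgeR called 3.70% of all genes in either direction. Of the markers, 1 fat body, 3 muscle and 1 midgut gene were higher there and 1 midgut and 1 chorion gene lower (edgeR). These counts moved with single libraries of that allele. Leaving out control 1 or 2 or knockout 1 or 2 gave 0 higher fat body genes, and muscle genes numbered 5 without control 1 and 1 without control 2 or knockout 1. Lower midgut genes numbered 2 without control 2 or knockout 3 and 0 without any other 1, and lower chorion genes 4 without control 1 and 2 without control 2 or knockout 3. None of the yolk protein, vitelline membrane, neuron and germline genes was called there. At an unadjusted p under 0.05 there were 0, 1, 0 and 3, beside 15.4% of all genes, and DESeq2 called 0. Without control 3 of that allele 1 vitelline membrane gene was higher. None of the 9 male genes had enough counts to be tested.

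The gene that overlaps the end of *Mcm3* on the opposite strand, *CG3309*, was, between the controls, higher with *ERR cond.2* (log2 fold change 0.55, adjusted p = 0.00516, edgeR), as *Mcm3* was, and had 817 to 1411 counts per library. The neighbor on the other side of *Mcm3*, *Rnp4F*, had a log2 fold change of −0.06 (adjusted p = 0.528, edgeR). The shared exon bases are 2.33% of those of *Mcm3*. Other members differed from the genes that overlap them. Between the controls the gene overlapping *Orc1* had a log2 fold change of 0.58 (*Orc1* −0.20). The gene overlapping *Orc6* had 0.51 (*Orc6* 0.02), and that overlapping *Orc2* had −0.18 (*Orc2* 0.19). Whether overlap has a part in the member values was not tested. Both neighbors of *Mcm3* were looked up after its values were seen.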
